A study of Homo sapiens with 6 samples.

Results

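The genes described here encode the plasminogen activators PLAT (tissue-type) and PLAU (urokinase-type), the urokinase receptor PLAUR, the activator inhibitors SERPINE2 and SERPINB2, tissue factor (F3), the Kunitz-type inhibitors TFPI and TFPI2, and thrombomodulin (THBD). They were found by symbol among array probesets annotated to exactly 1 gene, and each gene was represented by its brightest probeset, judged by the mean over the 6 arrays. Of the 9 genes, 8 were measured, out of 18132 genes on the array, and SERPINB2 was not analysed here. The set was selected on earlier results of the same comparison, and PLAT and F3 are both in the study's own list of genes altered on these arrays. Their differences are therefore given as a description. The adjusted p-values place each gene in the fit across all 18132 genes and are not independent evidence.

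Plasminogen activators cut plasminogen into plasmin, a broad protease that dissolves fibrin and helps to break down extracellular matrix. Urokinase works mostly at the cell surface, bound to its receptor, and serpins inactivate both activators by forming tight complexes with them. Tissue factor starts the extrinsic clotting cascade as the membrane receptor of factor VIIa, TFPI shuts that step down, and thrombomodulin turns thrombin towards activation of protein C. Basal-like breast cancer lines such as MDA-MB-231 are known for high urokinase and tissue factor.

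Epi tumors grew in NOD/SCID mice that received epinephrine under the skin at 2 mg/kg per day, begun 7 days before tumor cells were implanted, and PBS tumors grew in NOD/SCID mice that received PBS in equal volume. All mice were 4 to 6 weeks old and carried MDA-MB-231 cells, a human triple-negative breast cancer line long kept in culture, implanted under the skin of both flanks with Matrigel. The mice lack functional T and B cells, and a single cell line was used. RNA came from primary cells taken from the xenografts, with 3 Affymetrix Human PrimeView arrays per group, labelled as biological replicates 1 to 3. No source used here says whether each array stands for a mouse of its own, and p-values refer to these labelled replicates. Values are log2 probeset values as deposited. A difference is Epi minus PBS, and a difference of 1 is 2-fold. The array was designed for human transcripts, and how far its probes read mouse RNA was not tested.

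The 2 replicate 1 arrays, 1 of each treatment, stood apart from the other 4. They correlated at 0.982 with each other (Pearson's r over all genes) and at 0.935 to 0.962 with the others, which correlated at 0.972 to 0.989 among themselves. The median of all probesets was 6.05 to 6.40 on the Epi arrays and 5.98 to 6.42 on the PBS arrays. Results of a pair of fits are therefore given, limma without a block and limma with the replicate number as a block. The limma method draws each gene's spread towards a value shared by all genes. Its standard errors, intervals and p-values therefore measure the spread between a gene's own replicates only in part. With the block, the standard errors of PLAU, PLAUR, SERPINE2, TFPI and TFPI2 all lay at 0.20 to 0.21. Without the block, 0 of 18132 genes (0%) passed an adjusted p of 0.05, the lowest adjusted p was 0.190, and 241 genes had an unadjusted p under 0.05. With the block, 122 genes (0.673%) passed, 64 higher (0.353%) and 58 lower (0.32%) in Epi tumors.

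Tissue plasminogen activator was lower and tissue factor higher in Epi tumors than in PBS tumors, each by nearly 3-fold, and the other 6 genes differed less. PLAT had a log2 difference of -1.48 and F3 of 1.55. With the block 2 of the 8 genes passed, 1 in each direction, and without it 0 passed. In 2 of the 8 genes, the same PLAT and F3, the Epi and PBS arrays did not overlap, against 3.2% of all genes. The difference had 1 sign in all 3 replicate pairs for PLAT, F3, TFPI and TFPI2, which is 4 of 8 genes, against 18.9% of all genes. Since the set was selected on this comparison, nothing is read from these shares. The median difference was -0.13 over the 8 genes and -0.016 over all genes, with 5 genes below 0 and 3 above. All 8 lay above a log2 value of 5.69, the 30th percentile of the gene means, below which genes are called dim here.

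**Figure D1:**
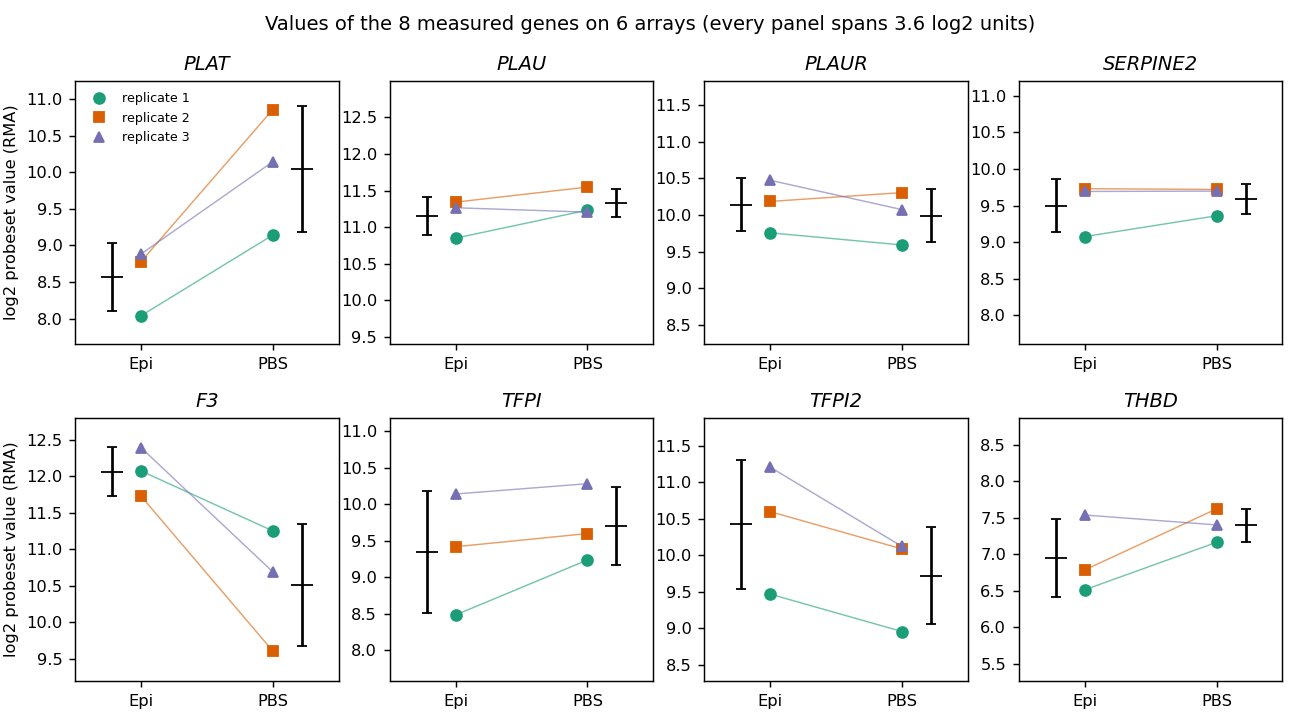
Log2 probeset value (vertical axis) of the 8 measured genes on each Epi and PBS array, with lines joining arrays of the same replicate number and black bars for the group mean and SD (n = 3 each). Every panel spans the same number of log2 units, and only PLAT and F3 have Epi and PBS arrays that do not overlap.

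PLAT, on chromosome 8, encodes tissue-type plasminogen activator, the main activator of fibrin breakdown in vessels. Its log2 values were 8.04, 8.78 and 8.88 in Epi replicates 1 to 3 and 9.14, 10.86 and 10.15 in PBS replicates 1 to 3. Every Epi array lay below every PBS array, with Epi replicate 3 and PBS replicate 1 closest to each other and PBS replicate 2 the highest. The means were 8.57 ± 0.46 in Epi tumors and 10.05 ± 0.86 in PBS tumors (SD, n = 3 each), a level 2.79-fold lower in Epi tumors. Within replicates 1, 2 and 3 the difference was -1.10, -2.08 and -1.26. The 95% confidence interval of the difference was -1.96 to -1.0 with the block (standard error 0.23, adjusted p = 0.00547 from limma) and -2.49 to -0.47 without it (standard error 0.44, adjusted p = 1.00). In a bulk sample, fewer cells that express a gene and less RNA per cell cannot be told apart. An exact permutation test (two-sided) of 3 against 3 arrays cannot go below 0.1, which is what PLAT and F3 both gave.

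All 7 probesets of PLAT were lower in Epi tumors, with differences of -1.61 to -0.58. Of their 21 differences within replicates, 20 were below 0. Probesets of a gene were read on the same arrays, so such counts do not add replicates, here or below. The exception was 0.21 in replicate 1, on a probeset with 6.55 in Epi replicate 1 and 6.34 in PBS replicate 1. When every probeset was fitted as a feature of its own with the block, 30 of 44988 (0.0667%) passed. Of the PLAT probesets 2 did, with adjusted p-values of 0.0314 and 0.0419 from limma, and the brightest did not (0.0812). Both that passed carry a suffix the maker gives to sets that may also read other transcripts. No PLAT probeset without that suffix passed. The call for PLAT with the block was lost without replicate pair 2 (adjusted p = 0.0575), after quantile normalization (0.120) and after median centring (0.0590), all from limma. Within replicate 1 the difference was -1.10, and over replicates 2 and 3 it was -1.67 (adjusted p = 0.0279 from limma with the block and 0.114 without it). With the replicate 1 arrays as a batch of their own, the adjusted p was 0.0314 from limma.

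PLAU, on chromosome 10, encodes urokinase, the activator tied to cell migration and matrix breakdown. Its values were 10.85, 11.34 and 11.27 in Epi replicates 1 to 3 and 11.23, 11.55 and 11.21 in PBS replicates 1 to 3. The groups overlapped, and the values spanned 0.70 log2 units over all 6 arrays, against 2.82 for PLAT. The difference was -0.18, with a 95% interval of -0.61 to 0.26 in limma with the block, and of -0.74 to 0.39 without it. Its 3 probesets had differences of -0.26 to -0.14, and 7 of 9 differences within replicates were below 0. Urokinase thus did not pass in either fit, and the intervals do not reach the difference measured for tissue-type activator.

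PLAUR, on chromosome 19, encodes the receptor that anchors urokinase to the membrane. It read 9.76, 10.19 and 10.48 in Epi replicates 1 to 3 and 9.59, 10.31 and 10.07 in PBS replicates 1 to 3. The groups overlapped on this probeset, and the difference was 0.15 (95% interval -0.29 to 0.58 in limma with the block). All 5 probesets were above 0, at 0.15 to 0.40, as were 14 of 15 differences within replicates, and on 2 of the 5 the groups did not overlap. The share of all probesets without overlap was not computed, so nothing is read from these counts. The probeset with 0.40 read 9.18, 9.01 and 8.75 in Epi replicates 1 to 3 and 8.69, 8.63 and 8.40 in PBS replicates 1 to 3. None of the 5 passed with the block. The brightest probeset carries a suffix the maker gives to sets that may also read other transcripts, as do those of SERPINE2 and TFPI2.

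SERPINE2, on chromosome 2, encodes protease nexin-1, a serpin that inhibits thrombin, urokinase and tissue-type activator. It read 9.08, 9.73 and 9.69 in Epi replicates 1 to 3 and 9.36, 9.72 and 9.70 in PBS replicates 1 to 3. In both groups the replicate 1 array was the lowest, and replicates 2 and 3 were at nearly 1 level. The difference was -0.093 (95% interval -0.52 to 0.33 in limma with the block), the closest to 0 of the 8 genes. Its 6 probesets ran from -0.17 to 0.051, with 4 below 0 and 2 above, and 2 of them were dim.

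F3, on chromosome 1, encodes tissue factor, the cell-surface starter of coagulation. Its log2 values were 12.07, 11.73 and 12.39 in Epi replicates 1 to 3 and 11.25, 9.61 and 10.69 in PBS replicates 1 to 3. All 3 Epi arrays lay above all 3 PBS arrays. PBS replicate 2, the highest array for PLAT, was the lowest for F3. The means were 12.06 ± 0.33 in Epi tumors and 10.52 ± 0.84 in PBS tumors (SD, n = 3 each), a 2.92-fold higher level in Epi tumors. The differences within replicates 1, 2 and 3 were 0.82, 2.12 and 1.70. The 95% interval was 1.04 to 2.06 with the block (standard error 0.24, adjusted p = 0.00652 from limma) and 0.60 to 2.5 without it (standard error 0.42, adjusted p = 1.00).

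The other probesets of F3 showed the same direction with larger differences. One read 10.31, 10.26 and 10.50 in Epi replicates 1 to 3 and 9.65, 7.00 and 8.09 in PBS replicates 1 to 3, a difference of 2.11. The other read 8.75, 9.71 and 9.92 in Epi replicates 1 to 3 and 8.16, 7.21 and 7.86 in PBS replicates 1 to 3, a difference of 1.72. All 9 differences within replicates were above 0 and the groups did not overlap on any of the 3 probesets. These probesets were read on the same arrays, and the share of all probesets without overlap was not computed. With every probeset as a feature and the block none of the 3 passed, at adjusted p-values of 0.0982 to 0.150 from limma. The call for F3 with the block was also lost after quantile normalization (adjusted p = 0.106) and median centring (0.0764), both from limma. Within replicate 1 the difference was 0.82, and over replicates 2 and 3 it was 1.91 (adjusted p = 0.0112 from limma with the block and 0.207 without it). With the replicate 1 arrays as a batch, F3 did not pass (adjusted p = 0.0938 from limma).

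**Figure D2:**
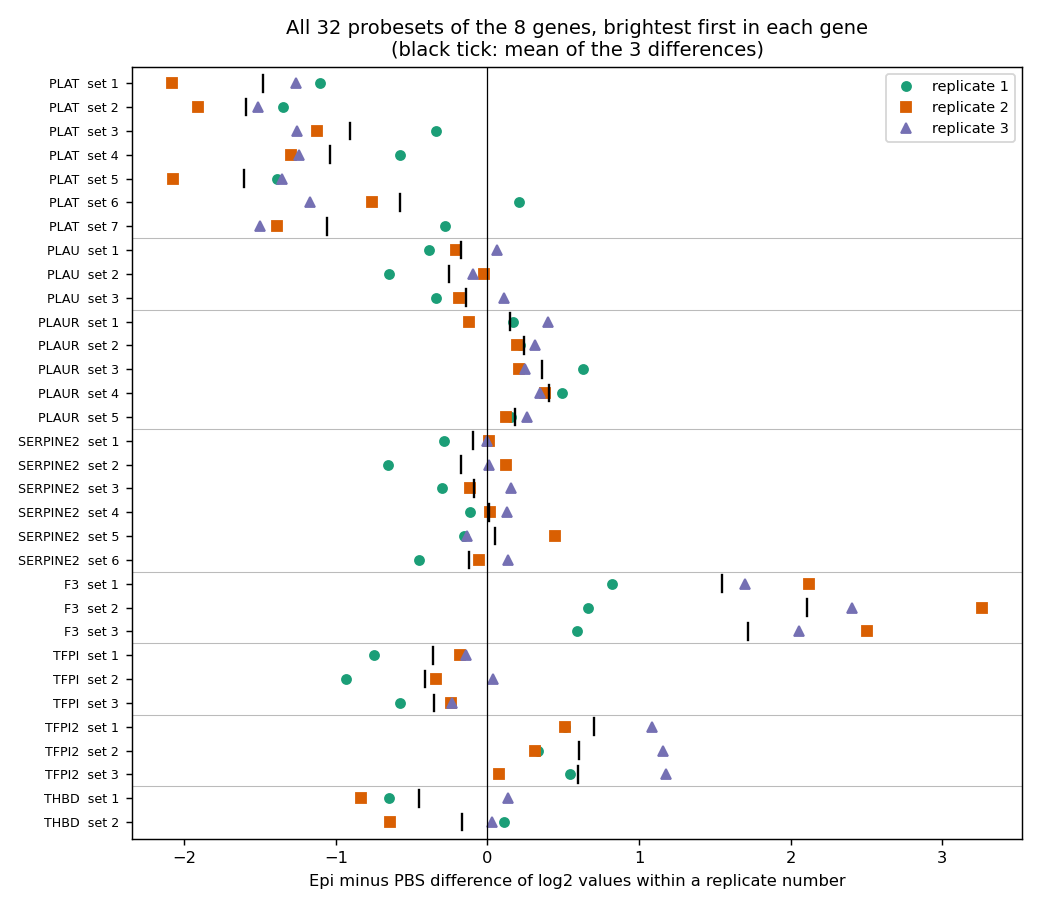
Epi minus PBS difference of log2 values within each replicate number (horizontal axis) for all 32 probesets of the 8 genes, brightest first in each gene, with a black tick at the mean of the 3 differences. Of the PLAT points 20 of 21 lie below 0 and all 9 of F3 lie above 0, while those of SERPINE2 fall on both sides, 10 below and 8 above. Probesets of a gene were read on the same 3 pairs of arrays and are not further replicates.

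TFPI2, on chromosome 7, encodes a matrix-bound Kunitz-type inhibitor that acts mainly on plasmin and only weakly on the tissue factor complex. It read 9.47, 10.60 and 11.21 in Epi replicates 1 to 3 and 8.96, 10.09 and 10.12 in PBS replicates 1 to 3. The groups overlapped because Epi replicate 1 was low, but the Epi array was the higher one within each number, by 0.51, 0.51 and 1.09. The difference was 0.70, with a 95% interval of 0.26 to 1.15 in limma with the block and -0.41 to 1.81 without it, and TFPI2 did not pass in either fit (adjusted p = 0.252 from limma with the block). Its 3 probesets had differences of 0.60 to 0.70, and all 9 differences within replicates were above 0. One of the 3 was dim.

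TFPI, on chromosome 2, encodes the main inhibitor of factor VIIa bound to tissue factor. It read 8.48, 9.42 and 10.14 in Epi replicates 1 to 3 and 9.23, 9.60 and 10.28 in PBS replicates 1 to 3. The groups overlapped. The Epi array was the lower one within each number, with differences of -0.75, -0.18 and -0.14, so most of the difference lay in replicate 1. The difference was -0.36 (95% interval -0.80 to 0.089 in limma with the block), its 3 probesets had -0.41 to -0.35, and TFPI did not pass in either fit.

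THBD, on chromosome 20, encodes thrombomodulin, the endothelial receptor that redirects thrombin to protein C. It read 6.51, 6.79 and 7.54 in Epi replicates 1 to 3 and 7.16, 7.62 and 7.40 in PBS replicates 1 to 3. The groups overlapped, since Epi replicate 3 lay above 2 of the 3 PBS arrays, and the differences within replicates were -0.65, -0.84 and 0.14. The difference was -0.45 (95% interval -0.93 to 0.027 in limma with the block). The other probeset had -0.17, with 1 of its 3 differences within replicates below 0, and THBD did not pass in either fit.

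**Figure D3:**
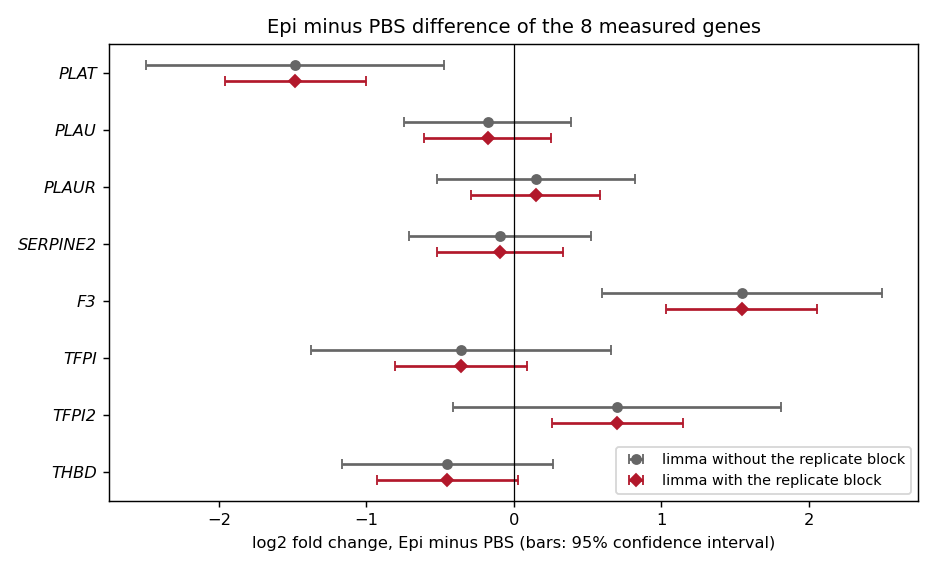
Log2 difference, Epi minus PBS (horizontal axis), of the 8 genes with 95% confidence intervals from limma without the replicate block (grey circles) and with it (red diamonds). Both intervals leave out 0 for PLAT and F3, and for TFPI2 the interval with the block does (0.26 to 1.15) and the one without it does not (-0.41 to 1.81).

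The 3 genes with a difference above 0, F3, TFPI2 and PLAUR, are shown with the 250 bases before their transcription start, from the RefSeq promoter table of GRCh38.p14, because the F3 promoter is known to hold AP-1 sites and the same letters could be looked for in the others. The windows are chr1:94541760-94542009 for F3, chr7:93890754-93891003 for TFPI2 and chr19:43670170-43670419 for PLAUR, all on the minus strand. They are written 5′ to 3′, and capitals mark each match to TGANTCA, the pattern used here for AP-1 sites, in which N is any base. As a pattern it reads the same on both strands.
F3: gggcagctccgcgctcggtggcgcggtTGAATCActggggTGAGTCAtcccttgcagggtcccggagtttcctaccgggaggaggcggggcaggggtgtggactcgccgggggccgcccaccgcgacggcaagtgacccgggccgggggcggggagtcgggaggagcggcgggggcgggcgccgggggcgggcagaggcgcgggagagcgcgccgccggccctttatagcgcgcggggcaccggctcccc
TFPI2: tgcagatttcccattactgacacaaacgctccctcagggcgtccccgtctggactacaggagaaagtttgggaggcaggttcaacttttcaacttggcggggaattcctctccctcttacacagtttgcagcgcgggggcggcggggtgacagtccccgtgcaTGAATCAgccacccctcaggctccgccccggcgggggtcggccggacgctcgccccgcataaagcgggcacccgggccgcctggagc
PLAUR: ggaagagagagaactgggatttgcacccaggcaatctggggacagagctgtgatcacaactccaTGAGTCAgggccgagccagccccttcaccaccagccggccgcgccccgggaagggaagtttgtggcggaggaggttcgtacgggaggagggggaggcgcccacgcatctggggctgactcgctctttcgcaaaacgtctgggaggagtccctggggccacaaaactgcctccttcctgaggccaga
F3 has 2 matches, at 223 to 217 and 210 to 204 bases before the start. TFPI2 has 1, at 87 to 81 bases, and PLAUR has 1, at 186 to 180 bases. The TFPI2 match and the F3 match at 223 to 217 bases read TGAATCA, and the others shown read TGAGTCA. At least 1 match is found in 6.59% of the 34943 windows of this length in the table, and 2 or more in 0.404%. Of the 9 genes, 7 have an entry in the table, PLAT and THBD not among them, and PLAU and SERPINE2 have 2 start sites each, which gives 9 windows. SERPINB2 is the fourth gene with an AP-1 match, so 4 of the 9 windows hold one. PLAU, SERPINE2 and TFPI have none. The cAMP response element, TGACGTCA on both strands, is in none of the 9 and in 1.63% of all windows. GGGCGG, the Sp1 motif on both strands, is in 5 of the 9 (1 of PLAU, both of SERPINE2, and those of F3 and TFPI2) and in 42.5% of all windows. The motifs, and the genes whose bases are shown, were chosen after the values were known. Whether a match goes with the direction of a difference was not tested, and PLAUR and TFPI2 passed in neither fit. A match describes letters in a window and not a bound site.

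PLAT and F3 ran opposite to each other over the 6 arrays (Pearson's r = -0.92), and PLAUR and TFPI2 ran together (r = 0.94). These points share 2 groups and the split between replicate 1 and the other arrays, so the values are descriptions. Among 6058 genes that were not dim and spanned at least 1 log2 unit, those most like PLAT over the 6 arrays included CORO2B, an actin-binding coronin (r = 0.995), and RGCC, a regulator of the cell cycle (0.994). Most unlike it were the lysophosphatidic acid receptor gene LPAR1 (-0.98), TXNRD1, a thioredoxin reductase (-0.97), and the interferon-induced IFIT2 (-0.95). F3 was most like the interferon-induced IFIT3 (0.993), RIGI, a sensor of viral RNA (0.987), and TRAM1, a protein of the endoplasmic reticulum membrane (0.986). It was most unlike the MAP kinase phosphatase gene DUSP5 (-0.99), the chromatin protein gene HMGA1 (-0.98) and CALB2, which encodes calretinin (-0.97).

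The rest of the plasminogen and clotting systems was given by 5 gene lists, of which 50 genes were measured and 34 were not dim. None passed without the block. With it 1 was lower and none higher, and the median difference was -0.040. That gene was VLDLR, a receptor that clears complexes of plasminogen activators with serpins. It read 4.06, 6.56 and 6.60 in Epi replicates 1 to 3 and 5.64, 7.41 and 7.52 in PBS replicates 1 to 3. The groups overlapped because of PBS replicate 1, and the difference was -1.11 (adjusted p = 0.0210 from limma with the block), on 1 probeset. With every probeset as a feature, VLDLR did not pass (adjusted p = 0.149 from limma with the block).

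Of 12 measured genes for plasminogen, plasmin inhibitors and other proteases of the system, none passed and 5 were dim. PLG, the plasminogen gene itself, was dim at 4.77 to 5.09 on the Epi arrays and 4.62 to 5.47 on the PBS arrays, so its difference is not informative. The antiplasmin gene SERPINF2 had a difference of -0.18. Of 10 receptors for plasminogen or for clearance, VLDLR was the only one that passed. ANXA2 and S100A10, which together form a cell-surface docking site for plasminogen and tissue-type activator, had differences of -0.12 and -0.085, and LRP1, the main clearance receptor, had 0.025. None of these 3 passed.

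None of 17 coagulation factors and their processing genes passed (median -0.053, 7 dim). None of 8 other natural anticoagulants passed (median 0.0070, 2 dim). The lowest of these was PROCR, the endothelial protein C receptor, which works beside thrombomodulin. It read 8.61, 9.07 and 9.10 in Epi replicates 1 to 3 and 9.20, 10.09 and 9.40 in PBS replicates 1 to 3, with no overlap, a difference of -0.64 and an adjusted p = 0.382 from limma with the block. Of 3 measured protease-activated receptor genes (F2R, F2RL2 and F2RL3), whose products belong to the thrombin-responsive receptors, none passed. F2R, the main thrombin receptor gene, was dim at 4.38 to 5.82 on the Epi arrays and 3.73 to 5.50 on the PBS arrays.

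**Figure D4:**
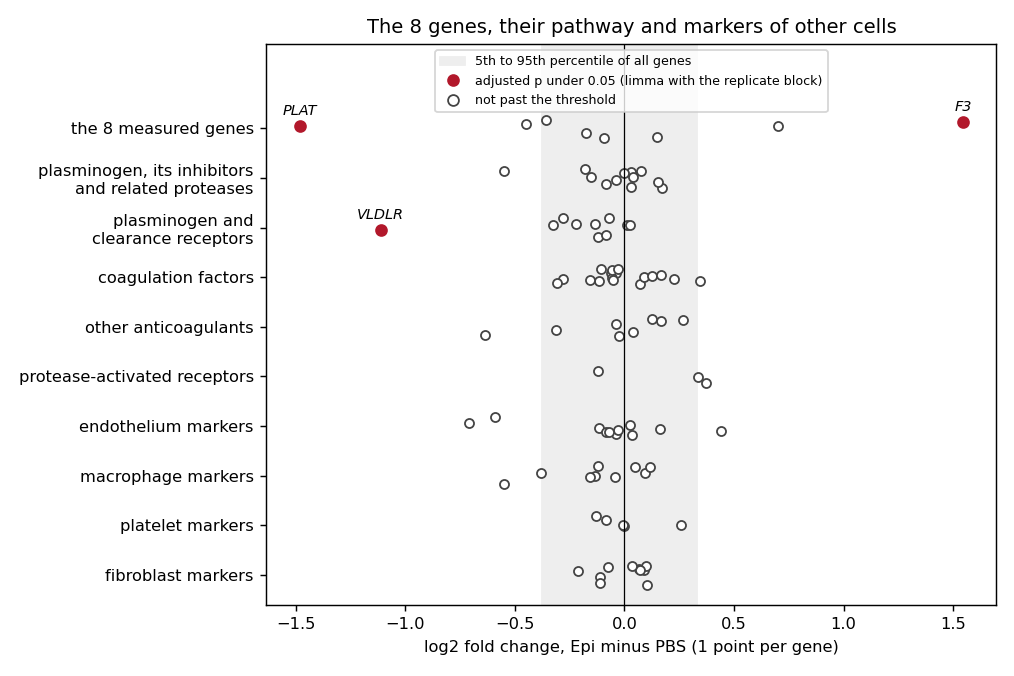
Log2 difference, Epi minus PBS (horizontal axis), with 1 point per gene for the 8 genes, the 5 lists of their pathway and 4 marker lists, and a grey band from the 5th to the 95th percentile of all genes. Red points passed an adjusted p of 0.05 over all genes in limma with the replicate block, which were PLAT, F3 and VLDLR. With every probeset as a feature, VLDLR, F3 and the brightest probeset of PLAT did not pass, while 2 other probesets of PLAT did.

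PLAT, TFPI, THBD and F3 are also expressed by endothelium, macrophages or fibroblasts, so markers of those cells are given beside them. None of 11 endothelium markers passed in either fit, and 4 were dim. Their mean level was 6.04 to 6.21 on the Epi arrays and 5.89 to 6.49 on the PBS arrays, and the defining marker CDH5 read 5.47 to 6.10 on the Epi arrays and 5.50 to 5.77 on the PBS arrays. PECAM1 had a difference of 0.44, ROBO4 of -0.59 and ESAM of -0.71, the last without overlap between groups. None of 9 macrophage markers passed (5 dim, mean level 5.39 to 5.58 on the Epi arrays and 5.22 to 5.86 on the PBS arrays). Of 10 fibroblast markers 7 were dim and none passed (4.50 to 5.19 on the Epi arrays and 4.68 to 4.87 on the PBS arrays), and of 5 platelet markers 2 were dim and none passed (5.70 to 5.85 on the Epi arrays and 5.55 to 5.90 on the PBS arrays). In these xenografts such cells come from the mouse, and how far the human probes read mouse RNA was not tested. RMA values have no 0, so a dim marker gives only an upper bound on human RNA. The marker levels therefore set no bound on the amount of mouse cells. The part of such cells in the differences of PLAT and F3 was not tested. All 8 genes that mark MDA-MB-231 cells were above the dim level, with a mean of 12.2 to 12.5 on the Epi arrays and 12.4 to 12.5 on the PBS arrays. Of 7 genes that this line is known to express little or not at all, PGR and CDH1 were dim. The others were not, with means over the arrays of 7.09 for ESR1, 6.68 for CLDN3, 9.24 for CLDN4, 7.50 for GATA3 and 7.37 for FOXA1. A value above the dim level therefore does not by itself show that a gene is expressed. THBD, with a mean of 7.17, lay near the level of ESR1. PLAT (mean 9.31), TFPI (9.52) and SERPINE2 (9.55) lay near the level of CLDN4, and the Epi mean of PLAT (8.57) lay below it. PLAU, PLAUR, F3 and TFPI2 lay higher, with means of 10.06 to 11.29.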

How the data were processed

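Xenograft RNA was measured on 6 Affymetrix Human PrimeView arrays, 3 Epi and 3 PBS. The values the authors deposited are on the log2 scale, for 49395 probesets. RMA (background subtraction, normalization between arrays and summary of the probes of a set) and Affymetrix Expression Console are named in the submitters' processing notes, with no version or build. RMA draws arrays towards a common distribution, so a difference is relative to the other genes. Scanner files were not used here. Precision is limited by the number of arrays, which carry no sequencing depth.

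Control probesets (102) were left out. Platform annotation gave 44988 probesets 1 gene, 1832 several and 2473 none, and only the first were used. Of 18132 genes, 11734 had several probesets. Groups were compared in R 4.3.3 with limma 3.58.1 (lmFit, eBayes) and Benjamini-Hochberg adjustment over all genes. Replicate numbers come from the labels. Deviations from the group mean correlated between arrays of equal number (r = 0.630, 0.627 and 0.453 for numbers 1 to 3). The replicate 1 arrays stood apart in both groups, which by itself makes the deviations of numbers 2 and 3 shift together. Deviations of unequal numbers were not compared, so these values cannot show that equal numbers are pairs. The fit with the block takes them as pairs, and no source used here says what a number stands for. The fits were tested on simulated data in which arrays of equal number were made to share a deviation. With pairs built in, that test cannot show whether the block is right for these arrays. The methods name no test for the arrays, and the study's general 2-tailed t-test was run as an alternative.

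Genes named were the 9 listed, list genes that passed, functional partners, and the 3 genes most like and most unlike each of the listed genes that passed, of which 1 is not reported here. The genes and lists were chosen with earlier results of these data known. Of the list genes, 2 are not analysed here.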

Additional observations from a re-analysis of the deposited data

How the results depend on the processing

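Of 18132 genes, 0 passed without a block, and with 1 array left out the count was 0 to 0. The methods' t-test called 0 after adjustment and 252 at an unadjusted p under 0.05. The count was 122 with the replicate block, 40 with the replicate 1 arrays as a batch and 16 in replicates 2 and 3 alone. With the block it was 162 without replicate pair 1, 66 without pair 2, 129 without pair 3, 9 after quantile normalization, 20 after median centring, 81 with the mean of a gene's probesets and 30 with every probeset as a feature. The cause of these moves was not tested.

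PLAT and F3 each kept their direction in all 23 alternatives and passed in 5 of the 10 that used the pairs or set the replicate 1 arrays apart. Each passed in none of the other 13 (lowest adjusted p = 0.829 from limma). In the fits with the block but without pair 2 or pair 3, all 8 genes had the same standard error, 0.32 and 0.31. The p-values of those fits therefore follow the size of the difference alone. PLAT ranged from -1.94 without PBS replicate 1 to -1.08 without PBS replicate 2, and F3 from 1.09 without PBS replicate 2 to 1.91 without PBS replicate 1. In the fit with the block and the mean of probesets, PLAT had -1.18 (adjusted p = 0.0185 from limma) and F3 1.79 (0.0151). PLAU, TFPI2 and THBD also kept their direction in all 23 and passed in none, but their size moved with the array left out. TFPI2 had 0.31 without Epi replicate 3, 0.32 without PBS replicate 1 and 1.18 without Epi replicate 1. THBD had -0.23 without Epi replicate 1 and -0.75 without Epi replicate 3. PLAU had -0.025 without Epi replicate 1, -0.067 without PBS replicate 2 and -0.27 without Epi replicate 2. SERPINE2 turned to 0.0029 in replicates 2 and 3 alone, with or without the block. Leaving out 1 array gave -0.21 to 0.12 for SERPINE2, -0.051 to 0.34 for PLAUR and -0.75 to 0.074 for TFPI. With 3 arrays per group, the intervals of the 6 genes that did not pass leave room for differences of up to 1.15 with the block.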
